A study of Mus musculus with 8 samples.

Results

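Haglr and 5 protein-coding genes of the Hoxd cluster, Hoxd1, Hoxd3, Hoxd4, Hoxd8 and Hoxd9, were followed in group 2 innate lymphoid cells (ILC2s) of visceral fat, and they are 6 of the 39527 genes measured. They were picked by gene name, with their levels on both diets already known, so the diet values of these 6 genes are given as a description without a test. ILC2s are tissue-resident lymphocytes that secrete type 2 cytokines. The source was epididymal visceral adipose tissue (VAT), and the mice were wild-type C57BL/6 males aged 14 weeks. The mice had been fed a high-fat diet (4 libraries, H1 to H4) or a normal diet (4 libraries, N1 to N4) for 8 weeks, beginning at 6 weeks of age. The sort gate is not given in the labels, and neither is whether a library came from 1 animal or from a pool, so p-values reflect only how much these libraries vary, and that variation may be technical.

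Hox genes encode homeodomain transcription factors that give cells their position along the body axis, and they lie in clusters whose gene order follows the order of their expression along that axis. Cells of the adult mesenchyme keep part of this code, and some Hox genes act in blood cell precursors. At the 3′ end of the Hoxd cluster lie Hoxd1, Hoxd3 and Hoxd4, the genes of anterior positions, and Hoxd8 and Hoxd9 follow toward the genes of posterior positions. Haglr is a long noncoding RNA read on the strand opposite to the Hoxd genes, from a start beside that of Hoxd1 toward Hoxd3.

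All 6 genes lie on chromosome 2 (mm10, GENCODE M21). Hoxd9 (ENSMUSG00000043342) spans 74697727 to 74700208, Hoxd8 (ENSMUSG00000027102) 74704615 to 74707933, Hoxd4 (ENSMUSG00000101174) 74711929 to 74729160, Hoxd3 (ENSMUSG00000079277) 74711927 to 74748442 and Hoxd1 (ENSMUSG00000042448) 74762980 to 74765142, each on the plus strand. Haglr (ENSMUSG00000075277), on the minus strand, spans 74748422 to 74762896, with its annotated start 83 bases from that of Hoxd1. The bases before the starts of Hoxd1 and Hoxd3, the coding members highest in these cells, and of Hoxd8, which was near 0, are shown from RefSeq (GRCm38.p6, plus strand), with CG dinucleotides in capitals. The windows are chr2:74762730-74762979, chr2:74711743-74711926 and chr2:74704365-74704614.
Hoxd1: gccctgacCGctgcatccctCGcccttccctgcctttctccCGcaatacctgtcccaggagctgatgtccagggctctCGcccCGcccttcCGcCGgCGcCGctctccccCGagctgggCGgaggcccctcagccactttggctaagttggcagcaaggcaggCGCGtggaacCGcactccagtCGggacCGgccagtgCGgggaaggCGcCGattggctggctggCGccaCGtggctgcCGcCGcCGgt
Hoxd3: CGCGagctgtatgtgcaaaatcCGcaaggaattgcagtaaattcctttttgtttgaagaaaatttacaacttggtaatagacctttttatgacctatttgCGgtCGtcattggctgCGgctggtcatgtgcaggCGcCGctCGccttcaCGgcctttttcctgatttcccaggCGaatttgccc
Hoxd8: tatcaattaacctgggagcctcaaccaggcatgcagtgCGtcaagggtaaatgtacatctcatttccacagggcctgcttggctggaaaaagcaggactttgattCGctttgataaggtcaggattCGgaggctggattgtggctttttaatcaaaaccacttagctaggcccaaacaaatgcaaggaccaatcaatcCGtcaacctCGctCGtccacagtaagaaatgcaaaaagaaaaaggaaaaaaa

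The first exon of Haglr (chromosome 2, 74762779 to 74762896, 118 bases) lies inside the Hoxd1 stretch, at its bases 50 to 167, read on the other strand, so the sequence before Hoxd1 also holds the annotated start of Haglr. The printed stretches hold 24 CG dinucleotides in 250 bases before Hoxd1, 11 in 184 bases before Hoxd3 and 6 in 250 bases before Hoxd8. Over the full promoter windows (250 bases before to 50 after the start), Hoxd1 had 29 CG dinucleotides, Hoxd3 20, Hoxd9 20, Hoxd8 6 and Hoxd4 4, against a median of 7 over 32851 windows of the same length. RefSeq places the start of Hoxd4 inside the GENCODE span, so that its window runs from 74721728 to 74722027, and the windows of Hoxd3 and Hoxd9 also follow RefSeq starts that lie past the GENCODE ones. Hoxd9 had as many as Hoxd3, although its RNA was near 0. The letters CCAAT, searched on both strands, were found once in the windows of Hoxd1, Hoxd3 and Hoxd8, in 2 places for Hoxd4 and not for Hoxd9, and 37.4% of all windows hold them. The letters CACGTG were found in the windows of Hoxd1 and Hoxd4, and 7.15% of all windows hold them. TATAA was found in the window of Hoxd4 (24.9% of all windows), and GATAA in those of Hoxd8 and Hoxd9 (25.4%). TATAA and GATAA share their last letters, and none of these motifs contains another.

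RNA was measured by sequencing full-length cDNA, and levels are given in FPKM as deposited, a measure that corrects fragment numbers for gene length and library size. Whole reads could be recovered from these values and came to 9005363 to 15752815 per high-fat library and 12272413 to 15225871 per normal-diet library. H2 was the shallowest library, yet it had 13663 genes at 1 FPKM or more, against 11204 to 11905 in the other high-fat libraries and 10763 to 11672 in the normal-diet libraries. Of all tested genes, those with 1 FPKM or more in at least 4 libraries, limma called 2.86% between the diets (adjusted p under 0.05, 328 of 11483): 112 were higher (0.975%) and 216 lower (1.88%) on the high-fat diet.

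Haglr, Hoxd1 and Hoxd3 were each higher in every high-fat library than in any normal-diet library, Hoxd4 was low and overlapped between the diets, and Hoxd8 and Hoxd9 were near 0 on both diets. Only Haglr and Hoxd1 reached the level of the tested genes. All high-fat libraries lay above all normal-diet libraries in 3.81% of the 24107 genes with values above 0 and in 4.31% of the tested genes. Because the 6 genes were chosen on this contrast, nothing is read from their counts. In sorted bulk cells, fewer cells of a type and less RNA per cell cannot be told apart.

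Haglr was at 7.24, 9.14, 7.52 and 12.1 FPKM in H1 to H4, against 0.520, 2.61, 1.66 and 1.81 FPKM in N1 to N4. The lowest high-fat library thus lay above the highest normal-diet library, N2, and N1 was the lowest of all. These levels rested on 29, 37, 33 and 62 reads in the high-fat libraries and on 2, 11, 8 and 9 reads in the normal-diet libraries. The mean was 8.99 ± 2.21 FPKM on the high-fat diet and 1.65 ± 0.862 FPKM on the normal diet (SD, n = 4 each), a 5.45-fold ratio of the means. The log2 difference of FPKM + 1 was 1.96 with a standard error of 0.30, and this scale understates the change of low genes. Counting error alone would give a coefficient of variation of 15.8% on the high-fat diet and 36.5% on the normal diet, and the observed values were 24.6% and 52.2%. The human counterpart of Haglr, also called HOXD-AS1, is known mostly from tumour cell lines.

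**Figure D1:**
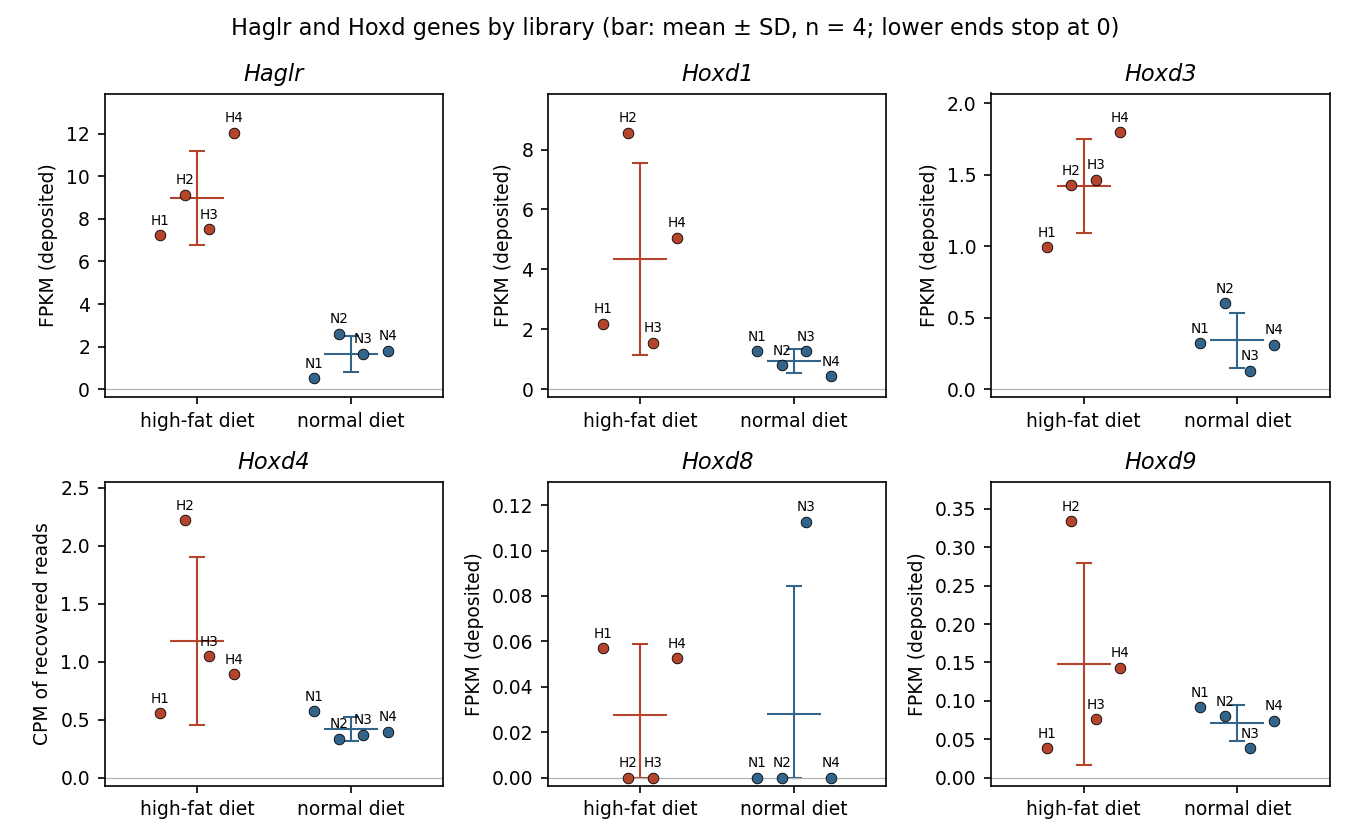
FPKM of the 5 members with values above 0, and for Hoxd4 CPM (recovered reads scaled to a common library total), in each library (points), by diet, with the high-fat libraries on the left; bars give the mean and SD of 4 libraries and stop at 0. Haglr, Hoxd1 and Hoxd3 show no overlap of the diets, with Haglr at 7.24 to 12.1 FPKM in high-fat and 0.520 to 2.61 FPKM in normal-diet libraries, while Hoxd4, Hoxd8 and Hoxd9 overlap.

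Hoxd1, a homeodomain factor of anterior positions that is also known from sensory neurons, was at 2.18, 8.57, 1.56 and 5.05 FPKM in H1 to H4, against 1.26, 0.792, 1.27 and 0.429 FPKM in N1 to N4. The groups did not overlap, but H3 lay close to N3, and H2 and H4 stood above the other libraries. The reads were 51, 154, 37 and 108 in the high-fat libraries and 24, 19, 26 and 10 in the normal-diet libraries. The mean was 4.34 ± 3.20 FPKM on the high-fat diet and 0.938 ± 0.405 FPKM on the normal diet (SD, n = 4 each), with a log2 difference of 1.29 and a standard error of 0.46. Without H2 the log2 difference was 0.95. The coefficient of variation among the high-fat libraries was 73.8%, where counting error alone would give 10.7%.

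Hoxd3, known from human endothelial cells for raising integrin expression, was at 0.992, 1.43, 1.46 and 1.80 FPKM in H1 to H4, against 0.319, 0.602, 0.128 and 0.310 FPKM in N1 to N4. The groups did not overlap, and the high-fat libraries lay closer together than they did for Hoxd1. The reads were 66, 70, 104 and 136 in the high-fat libraries and 18, 30, 8 and 24 in the normal-diet libraries. The mean was 1.42 ± 0.330 FPKM on the high-fat diet and 0.340 ± 0.195 FPKM on the normal diet (SD, n = 4 each), with a log2 difference of 0.85 and a standard error of 0.14. Hoxd3 reached 1 FPKM in 3 libraries and so stayed outside the test, although it had more reads than Haglr in all libraries but N3, where both had 8.

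Hoxd4, another anterior gene and in mouse a target of retinoic acid, is deposited with values below 0, from which no FPKM can be read, but its whole reads can be recovered. It had 8, 20, 14 and 14 reads in H1 to H4, against 7, 5, 5 and 6 reads in N1 to N4. In CPM, the recovered reads scaled to a common library total, this came to 0.554, 2.22, 1.04 and 0.889 in the high-fat libraries and 0.570, 0.334, 0.370 and 0.394 in the normal-diet libraries. H2 was the highest, and H1 lay under N1, so the groups overlapped. The mean was 1.18 ± 0.725 CPM on the high-fat diet and 0.417 ± 0.105 on the normal diet (SD, n = 4 each), a log2 difference of 1.27 with a standard error of 0.44.

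Hoxd8 and Hoxd9, which pattern more posterior structures, were near 0. Hoxd8 had 1 read in H1 and 1 in H4, against 2 reads in N3, and 0 reads in the other 5 libraries. A count of 0 allows up to 3 reads, which amount to 0.155 to 0.228 FPKM in the high-fat libraries and 0.168 to 0.203 FPKM in the normal-diet libraries, and every Hoxd8 value lay under these limits, which cover counting error only. Hoxd9 had 1, 6, 2 and 4 reads in H1 to H4, against 2, 2, 1 and 2 reads in N1 to N4, or 0.0386, 0.334, 0.0764 and 0.143 FPKM against 0.0918, 0.0801, 0.0382 and 0.0742 FPKM. H2 and H4 were the highest and H1 lay among the normal-diet libraries. A diet difference in these genes was not detectable at this depth.

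Along the cluster the reads lay at the anterior end. Hoxd1, Hoxd3 and Hoxd4 together had 125, 244, 155 and 258 reads in H1 to H4, against 49, 54, 39 and 40 reads in N1 to N4. The 6 genes from Hoxd8 to Hoxd13 had 2, 13, 5 and 10 reads in the high-fat libraries and 4, 2, 9 and 5 reads in the normal-diet libraries. The anterior sum did not overlap between the diets, at 15.9 ± 8.10 CPM on the high-fat diet and 3.28 ± 0.631 on the normal diet (SD, n = 4 each). The other sum overlapped, at 0.647 ± 0.568 and 0.364 ± 0.222 CPM on the same diets. Most anterior reads are those of Hoxd1 and Hoxd3, chosen on this contrast, so the lack of overlap follows from that choice. With 30 and 20 reads in all, the other sum could hardly show a difference.

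**Figure D2:**
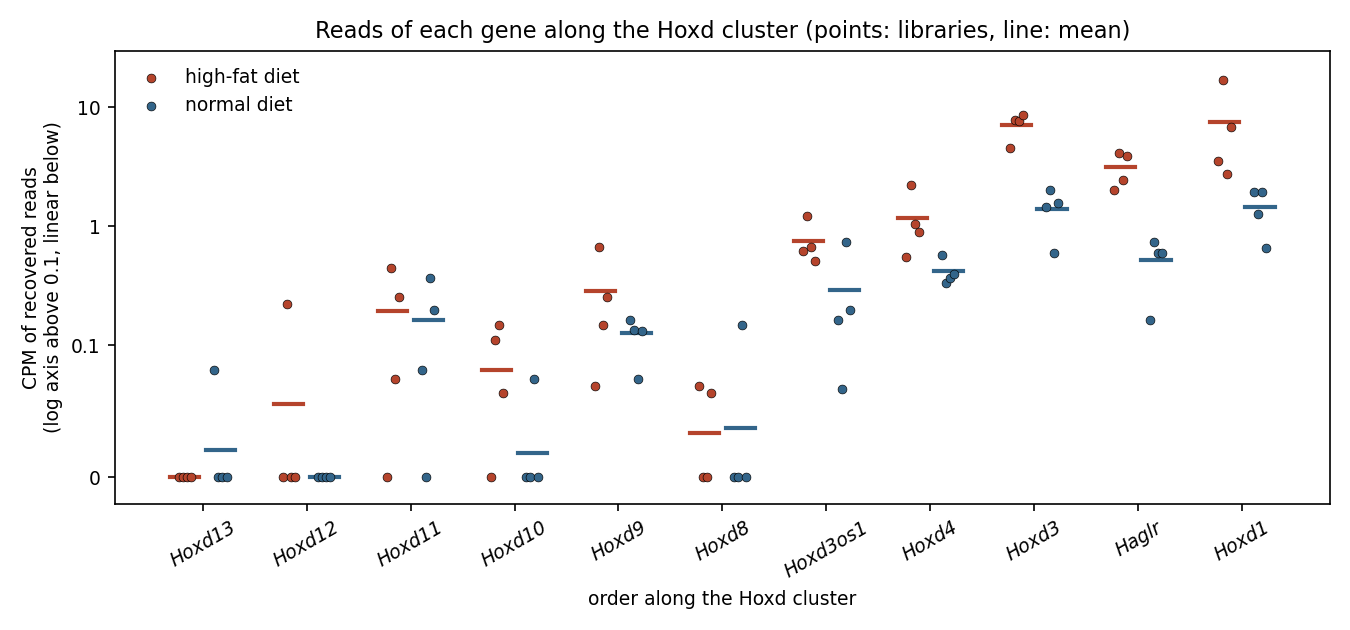
CPM of recovered reads of the Hoxd genes and Haglr in the order of their place on the chromosome, for each high-fat and each normal-diet library (points) with the mean of a diet as a short line, on an axis that is logarithmic above 0.1 and linear below. Reads concentrate at Hoxd1 (7.56 ± 6.60 on the high-fat diet, 1.45 ± 0.618 on the normal diet), Hoxd3 and Haglr, and the genes from Hoxd8 on hold few on either diet.

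The ratio of reads between neighbours differed between libraries. Hoxd1 had 1.76, 4.16, 1.12 and 1.74 reads for each Haglr read in H1 to H4, against 12, 1.73, 3.25 and 1.11 in N1 to N4. For Hoxd3 the ratio to Haglr was 2.28, 1.89, 3.15 and 2.19 in the high-fat libraries and 9, 2.73, 1 and 2.67 in the normal-diet libraries. The highest ratios, those of N1, rest on 2 reads of Haglr, and both ratios overlapped between the diets.

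Which member was highest depended on the gene length used. The Haglr values imply a length of 379 bases, while the exons of Haglr in GENCODE M21 cover 3021 bases and its 7 transcripts are 992 to 2085 bases long. For Hoxd3 the implied length was 5321 bases against 4191 annotated, and for Hoxd1 1863 against 1862. As deposited, Haglr was above Hoxd1 in 4 of 4 high-fat and 3 of 4 normal-diet libraries, and the order of mean FPKM was Haglr, Hoxd1, Hoxd3, Hoxd9 and Hoxd8 on both diets. Per kilobase of annotated exons, Hoxd1 was above Haglr in 4 of 4 libraries of each diet. On that scale Hoxd1 had 4.06 ± 3.55 CPM per kilobase on the high-fat diet and 0.780 ± 0.332 on the normal diet, and Haglr had 1.04 ± 0.348 and 0.172 ± 0.0820 on the same diets (SD, n = 4 each). Hoxd3 lay between them, at 1.71 ± 0.427 on the high-fat diet and 0.336 ± 0.141 on the normal diet, above Haglr in 4 of 4 high-fat and 3 of 4 normal-diet libraries and below Hoxd1 in 3 of 4 of each. Hoxd4 followed at 0.399 ± 0.246 and 0.142 ± 0.0356, and Hoxd9 and Hoxd8 came last. The reads were counted with an annotation that is not given, and they may not cover all of the GENCODE M21 exons. The order on this scale is therefore uncertain. The ratio between the diets for 1 gene does not depend on its length.

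**Figure D3:**
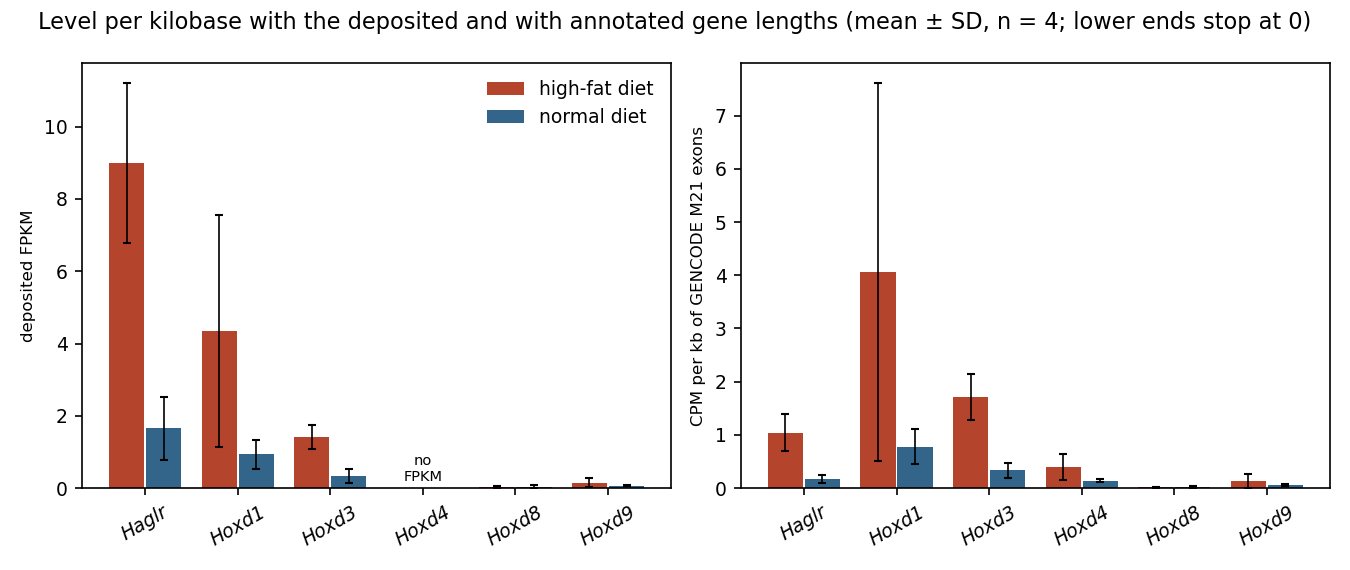
Mean level of each member by diet, with SD over 4 libraries, as deposited FPKM and as CPM per kilobase of the exons in GENCODE M21, on linear axes, with lower error bars ending at 0 where they would pass it. Haglr leads with the deposited lengths, while Hoxd1 leads with the annotated ones, although the reads may not cover all annotated exons.

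Reads of these genes can be shared. The libraries do not mark strand, so a read in a stretch that genes share, on either strand, cannot be assigned to 1 of them. The annotated exons of Haglr overlap those of Hoxd3 by 21 bases and those of Gm14424, a noncoding gene on the other strand, by 260 bases. Hoxd3 and Hoxd4 share 388 exonic bases on the same strand, and each shares 347 with the antisense Hoxd3os1. Gm14424 had 9, 5, 8 and 12 reads in H1 to H4, against 1, 0, 0 and 7 reads in N1 to N4, and Gm14426 had 7, 14, 3 and 8 reads, against 6, 0, 4 and 4 reads; these genes were chosen after their values were seen. In CPM, Gm14424 was at 0.623, 0.555, 0.597 and 0.762 in H1 to H4, against 0.0815, 0, 0 and 0.460 in N1 to N4, without overlap, while Gm14426 overlapped.

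Among the other Hox genes and cluster transcripts, 44 of them in the table, 4 reached 1 FPKM in at least 1 library, 34 stayed under 1 FPKM throughout and 6 had values below 0. Hoxa9, which sustains blood cell precursors, was the only one tested and was at 1.70 ± 1.32 FPKM on the high-fat diet and 1.95 ± 0.523 FPKM on the normal diet (SD, n = 4 each). Its log2 difference was -0.24 with a standard error of 0.30, and it did not pass (limma, adjusted p = 0.743, and 0.188 to 0.996 over the other settings). Hoxd3os1 was at 0.972, 1.53, 0.904 and 0.690 FPKM in H1 to H4, against 0.231, 0.111, 1.25 and 0.305 FPKM in N1 to N4, so that N3 lay among the high-fat libraries. Hoxb5 had 6, 17, 9 and 2 reads in the high-fat libraries and 12, 2, 24 and 16 reads in the normal-diet libraries, and Hoxc12 had 4, 16, 6 and 6 reads against 4, 0, 5 and 0 reads. In both the diets overlapped. Hoxb2, chosen after its values were seen, had 2, 1, 4 and 4 reads in H1 to H4, against 0, 0, 1 and 1 reads in N1 to N4, too few to compare by library.

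Hoxd1 and Hoxd3 held 65.7%, 52.7%, 55.5% and 73.7% of the reads of the 38 counted Hox genes in H1 to H4, against 29.8%, 51.6%, 18.2% and 24.1% in N1 to N4. The shares did not overlap, though N2 came close to H2. Both genes were chosen with this contrast known, so nothing further is read from the shares. The remaining counted Hox genes had 4.23, 22.3, 8.43 and 5.52 CPM in the high-fat libraries and 8.07, 3.07, 11.3 and 7.03 in the normal-diet libraries. H2 was the highest library for this sum as well, and the diets overlapped.

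**Figure D4:**
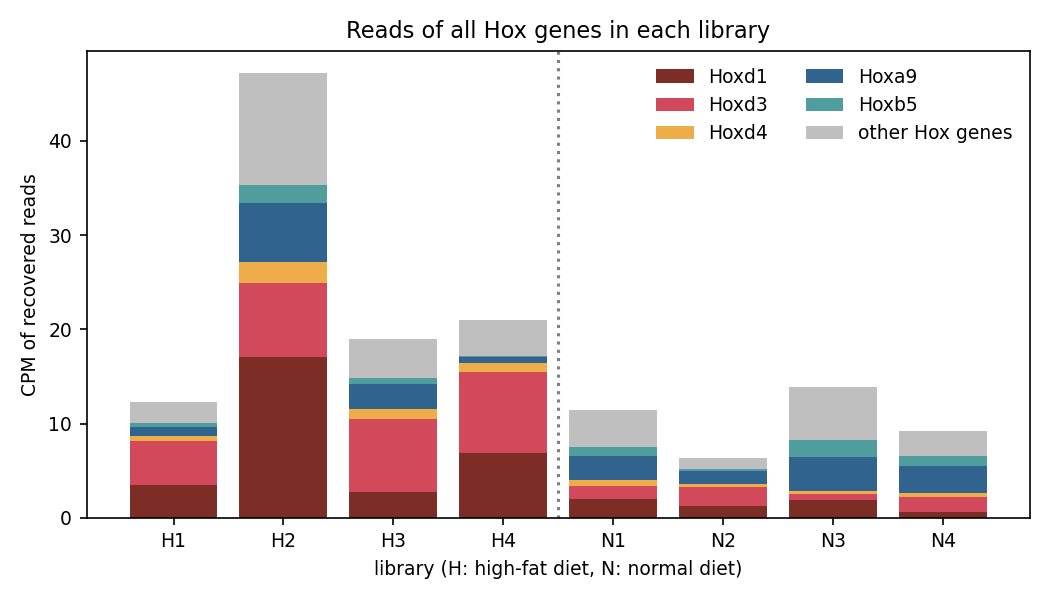
CPM of recovered reads of the counted Hox genes in each library as stacked bars, high-fat libraries first, with 5 genes in colour and the others in grey. Hoxd1 and Hoxd3 form the base of each bar and 52.7% to 73.7% of it in the high-fat libraries, and H2 has the tallest bar, at 47.2 CPM.

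Of the genes that flank the cluster on chromosome 2, 12 were tested and none was called, with a median log2 difference of 0.09 beside -0.02 over all tested genes (limma, 1 gene at an unadjusted p under 0.05, against 18.1% of all tested genes, 2083 of 11483). Atp5g3, a subunit of the ATP synthase, was at 226 ± 63.5 FPKM on the high-fat diet and 261 ± 11.5 FPKM on the normal diet (SD, n = 4 each, log2 difference -0.25, limma, adjusted p = 0.499). Hnrnpa3, an RNA-binding protein, was at 105 ± 15.9 and 106 ± 24.4 FPKM on the same diets (-0.01, limma, adjusted p = 0.982).

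Polycomb complexes silence Hox genes and Trithorax complexes keep them active. Of 27 tested Polycomb genes none rose and 1 fell, with a median of -0.06, and 1.88% of all tested genes fell. By limma, 9 of the 27 had an unadjusted p under 0.05, beside 18.1% of all tested genes. The gene that fell was Kdm2b, which brings a Polycomb complex to unmethylated CG-rich DNA. It was at 28.2 ± 2.87 FPKM on the high-fat diet and 53.2 ± 6.07 FPKM on the normal diet (SD, n = 4 each), a log2 difference of -0.89 (standard error 0.14, adjusted p = 0.00527 by limma), and it was called in all 16 other settings. Of 19 Trithorax-list genes 1 rose and 1 fell, beside 0.975% and 1.88% of all tested genes. Their median was 0.04 (limma, 5 at an unadjusted p under 0.05, against the same 18.1%). Rbbp5, a core subunit of the complexes that methylate histone H3 at lysine 4, rose to 12.4 ± 3.25 FPKM on the high-fat diet, against 6.71 ± 0.534 FPKM on the normal diet (0.77, limma, adjusted p = 0.0274). This call ended without H1, H3, H4, N1, N2 or N3 and without the filter on low values (adjusted p up to 0.0951). Dot1l, which methylates histone H3 at lysine 79 and is known for holding Hoxa genes active in leukaemia, fell to 47.3 ± 5.87 FPKM on the high-fat diet, against 82.7 ± 11.5 FPKM on the normal diet (-0.79, limma, adjusted p = 0.0119), and its call ended without H4 (adjusted p = 0.0529).

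The HOX cofactor list (factors that bind DNA beside HOX proteins, and related genes), the genes of chromatin loops and the retinoid pathway held no call. None of 10 HOX cofactors passed (median -0.01, limma, 1 at an unadjusted p under 0.05, against 18.1% of all tested genes). Tgif1, a TALE homeodomain repressor, was at 279 ± 42.8 FPKM on the high-fat diet and 272 ± 17.9 FPKM on the normal diet (0.03, limma, adjusted p = 0.950). Pbxip1, a PBX-interacting protein, was at 88.0 ± 26.9 and 53.9 ± 7.23 FPKM on the same diets (0.66, limma, adjusted p = 0.0788), and passed in 5 of 16 other settings. None of 12 CTCF and cohesin genes passed (median -0.01, limma, 0 at an unadjusted p under 0.05), with the cohesin loader Mau2 at a log2 difference of 0.05 and the cohesin subunit Smc1a at -0.13 (limma, adjusted p = 0.899 and 0.754). None of 8 retinoid genes passed (median 0.01, limma, 2 at an unadjusted p under 0.05, against the same 18.1%). The retinoic acid receptor Rara was at 32.8 ± 6.58 FPKM on the high-fat diet and 29.7 ± 4.60 FPKM on the normal diet (0.13, limma, adjusted p = 0.756), and Rarg differed by -0.02 (limma, adjusted p = 0.975).

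The named genes whose profile over the 8 libraries was nearest to that of Haglr were ranked by the root mean square distance of centred log2 values among 10433 tested genes, where the median distance was 1.08. Cd200, a surface glycoprotein that restrains myeloid cells, came first at a distance of 0.455, with 1.66, 2.29, 3.16 and 3.78 FPKM in H1 to H4, against 0.319, 0.607, 0.436 and 0.669 FPKM in N1 to N4. Tnfsf15, a TNF family cytokine that can stimulate ILC2s, followed at 0.471, with 5.01 ± 2.08 FPKM on the high-fat diet and 1.51 ± 1.20 FPKM on the normal diet (SD, n = 4 each). Next came Mustn1, a small muscle and skeletal protein, at 0.490, with 4.28 ± 3.39 and 0.587 ± 0.508 FPKM on the same diets. H2-Eb1, an MHC class II chain, stood at 0.496, with 15.2 ± 3.90 and 4.03 ± 0.830 FPKM, and Crmp1, a cytoskeletal phosphoprotein, at 0.498, with 8.70 ± 3.40 and 3.21 ± 1.19 FPKM. Hoxd1 ranked 103, at 0.714. Of these 5 genes, Tnfsf15 alone overlapped between the diets, N2 standing above H1. All high-fat libraries lay above all normal-diet libraries in 4.31% of the tested genes. Since the 5 were ranked by closeness to Haglr, their direction by diet follows from that choice and is no separate result.

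**Figure D5:**
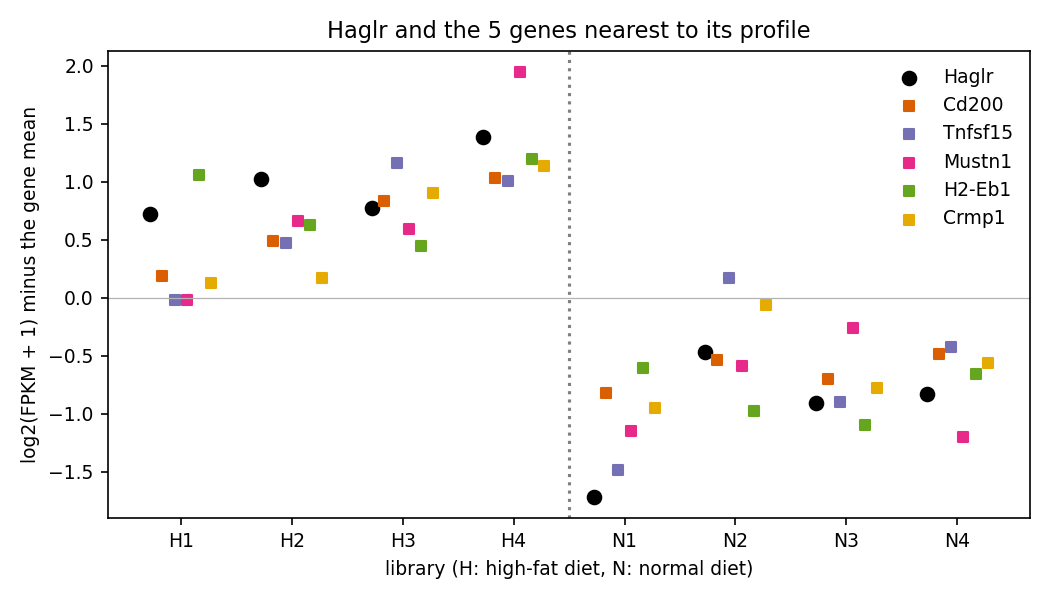
Centred log2(FPKM + 1) of Haglr and of the 5 genes nearest to it in each library, high-fat libraries on the left. The points of a library are spread sideways by gene for legibility. All 6 genes are on average higher on the high-fat diet, which follows from choosing the 5 by their closeness to Haglr.

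Some transcripts of other cell types also differed between the diets. The summed level of 12 endothelial markers was 52.2, 29.8, 55.8 and 58.1 FPKM in H1 to H4, against 23.8, 18.2, 20.7 and 18.1 FPKM in N1 to N4. Of the 12, 7 had all high-fat libraries above all normal-diet libraries, beside 3.81% of all genes above 0. Pecam1, the largest part of this sum in each library, overlapped, at 10.6 to 25.1 FPKM in high-fat and 11.3 to 16.1 FPKM in normal-diet libraries. Of 4 tested endothelial markers limma called 2 higher, the junction protein Esam at a log2 difference of 1.67 (adjusted p = 0.0111) and Vwf at 1.04 (adjusted p = 0.0428), a call that ended in 9 of 16 other settings. In FPKM, H4 had the highest endothelial sum and the highest Haglr and Hoxd3 levels. H2 had the lowest endothelial sum of the high-fat libraries and the highest Hoxd1 level. In CPM, Haglr was highest in H2, at 4.11 against 3.94 in H4. Cdh5, which defines endothelial cells, was low, with 0.333 to 0.416 FPKM in high-fat and 0.0241 to 0.315 FPKM in normal-diet libraries, while Plvap was at 0.260 to 10.7 FPKM in high-fat libraries, against 0 to 0.0565 FPKM in normal-diet libraries (0 in N2 and N3), and Cldn5 at 0.545 to 8.35 FPKM, against 0 to 0.615 FPKM (0 in N3). The adipocyte sum was 27.3 to 108 FPKM in high-fat and 5.55 to 8.78 FPKM in normal-diet libraries, and 2 of 10 markers did not overlap. Fabp4, which endothelial cells and macrophages also express, made up most of this sum in H1, H3 and H4. In H2 it was at 9.68 FPKM, beside Adig at 9.81 FPKM, and in normal-diet libraries it was at 0.788 to 1.81 FPKM. Fabp4 differed by 4.29 (limma, adjusted p = 0.0270), and its call ended in 7 of 16 other settings. Adipoq was at 0 in H2, H4, N2, N3 and N4. The macrophage sum was 12.1 to 13.0 FPKM in high-fat and 8.27 to 9.79 FPKM in normal-diet libraries, with 2 of 10 markers higher in all high-fat libraries. C1qb, 1 of these, was at 0.429 to 1.63 FPKM in high-fat libraries and at 0 in all 4 normal-diet libraries. Adgre1 was lower in all high-fat libraries, at 0.0952 to 0.797 FPKM, against 0.984 to 1.80 FPKM in normal-diet libraries. The part of these cells in the levels of Haglr and the Hoxd genes was not tested.

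The adipose stroma, whose cells keep a positional Hox code, had 3 of 15 markers higher in all high-fat libraries. The share among all genes above 0 was 3.81%. The stromal marker sum was 216 to 436 FPKM in high-fat and 308 to 502 FPKM in normal-diet libraries. Ly6a, which lymphocytes also express, made up most of it, and without Ly6a, a sum chosen after seeing the data, it was 63.9, 31.6, 43.0 and 125 FPKM in H1 to H4, against 24.1, 35.0, 40.8 and 36.8 FPKM in N1 to N4. H1, H3 and H4 then stood above all normal-diet libraries, and H2 lay among them. Col3a1, a fibrillar collagen, was at 0.653 to 11.4 FPKM in high-fat and 0.243 to 0.606 FPKM in normal-diet libraries, without overlap. Pdgfra was at 0.0845 to 0.634 and 0.0792 to 0.207 FPKM on the same diets, and Lum was at 0 in N1 and N2. Mfap5 was the 1 stromal marker called (1.17, limma, adjusted p = 0.0274), and the call ended in 8 of 16 other settings. Mesothelial markers summed to 4.73 to 7.23 FPKM in high-fat and 4.27 to 6.83 FPKM in normal-diet libraries (1 of 10 not overlapping), with Msln at 0 in N2 and N4. T cell markers, led by Trbc1 and Trbc2, summed to 820 to 1604 FPKM in high-fat and 771 to 1052 FPKM in normal-diet libraries. Trbc1 was at 406 to 740 and 326 to 444 FPKM on the same diets, while Cd3e was at 7.33 to 15.1 and 2.49 to 11.6 FPKM. All 9 tested T cell markers had a log2 difference above 0, with a median of 0.82, against 5501 of all 11483 tested genes. None of the 9 was called by limma (3 at an unadjusted p under 0.05, against 18.1% of all tested genes). Mast cell markers summed to 1904 to 8223 FPKM in high-fat and 4114 to 8573 FPKM in normal-diet libraries. All 13 ILC2 markers reached 1 FPKM, and their sum was 6752 to 7709 FPKM in high-fat and 8192 to 10379 FPKM in normal-diet libraries. Of the 13, 3 had a log2 difference above 0, and none of these was called. Among them Il7r was at 203 to 272 FPKM in high-fat and 150 to 199 FPKM in normal-diet libraries, without overlap. Limma called 3 of the 13 lower, beside 1.88% of all tested genes. Il5 was called in every setting, Il2ra in all but 2 of 16 other settings and Gata3 in all but 11 (limma, adjusted p up to 0.115). The part of these sums in the result was not tested either.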

How the data were processed

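Total RNA of sorted VAT ILC2s was reverse transcribed by SMART-Seq HT, and a transposase kit (TruePrep) gave the libraries, per the labels' protocols. HISAT2, Cufflinks and mm10 are listed in the submitters' processing notes; their versions and the annotation: not given in the sources used here. Values are FPKM as the authors deposited them, per the file headers, for 39527 genes. In 14605 genes the deposited values are below 0, and 815 are at 0 throughout. Within a library the worth of 1 read takes 10 recurring sizes, 0.863 to 1.18, which were kept in the main values. With these sizes whole reads were recovered for 100% of 24107 genes (relative tolerance 1e-06, lengths of at least 20); with the sizes of the next row this worked for 6 of 500 genes drawn. Recovered reads are too few by any factor that all reads of a gene share.

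The 11483 genes that reached 1 FPKM in 4 or more of 8 libraries were tested on log2(FPKM + 1) with limma 3.58.1 in R 4.3.3, diet as the only term, eBayes with trend and robust options, two-sided, Benjamini-Hochberg adjusted at 0.05; the code was tested on simulated data. Log2 differences are high-fat minus normal diet. Standard errors of members come from their own libraries. Log2 CPM of recovered reads used a prior count of 0.5. The members and gene lists were chosen with earlier results of these data known. Named are all members, other Hox genes at 1 FPKM in at least 1 library, up to 4 called genes of each list or else its 2 most expressed, and the 5 genes nearest to Haglr, without predicted or unnamed genes. Alternatives were another pseudocount, no filter, 2 scalings, a replicate block, log2 CPM of recovered reads, the sizes divided out and each library left out; leaving out H2 and N2 together, and the annotated exon lengths, were chosen after seeing the data. A result on another Hox gene is not reported here.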

Additional observations from a re-analysis of the deposited data

Results flagged for a closer look

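Of 80 groups of 4 libraries examined, 6 held a library far from the other 3, measured as its gap to the nearest library over the group's range, where chance gives about 1 in 20. Among the members this was Hoxd8 in N3, at 0.113 FPKM with the other normal-diet libraries at 0, which is 2 reads. Hoxd3os1, antisense to Hoxd3 and Hoxd4, was at 1.25 FPKM in N3, against 0.111 to 0.305 FPKM in the other normal-diet libraries. Hoxc12 was at 1.57 FPKM in H2, against 0.316 to 0.444 FPKM in the other high-fat libraries. Hnrnpa3 was at 143 FPKM in N2, against 89.9 to 97.8 FPKM, and Rbbp5 at 7.50 FPKM in N4, against 6.38 to 6.52 FPKM. Lrrn4, a mesothelial marker, was at 4.56 FPKM in N1, against 2.80 to 3.09 FPKM.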

How the results depend on the processing

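Haglr, Hoxd1 and Hoxd3 stayed higher on the high-fat diet in every setting that gave a value. Because their diets did not overlap, leaving out a library or changing the pseudocount could not reverse this direction, only its size. Haglr, at a log2 difference of 1.96, moved to 2.53 with a pseudocount of 0.1 and to 2.61 on recovered-read CPM, and to between 1.71 and 2.13 with 1 library left out. Hoxd1, at 1.29, moved to 2.10 on recovered reads and to between 0.95 and 1.58 with 1 library left out, and to 0.92 when H2 and N2 were both left out, which was decided after seeing the data. Hoxd3, at 0.85, moved to 1.87 and 2.40 under the first 2 settings and to between 0.77 and 0.94 with 1 library left out. Hoxd4, at 1.27, was between 0.91 and 1.56 with 1 library left out and 0.82 without H2 and N2. Hoxd9, at 0.09, moved to 0.41 and 0.67, and to between 0.02 and 0.14. Hoxd8, near 0, moved to 0.33 on recovered reads, and to between -0.01 and 0.04. Quantile values were not run for members under the filter, and Hoxd4 has values on recovered reads only.

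The 328 genes called became 130 without the filter, 1390 on recovered reads (1025 higher, 365 lower), where the median of all genes shifted by 0.14, and 571 with the recurring sizes divided out (185 higher, 386 lower). Without the filter 41 were higher and 89 lower. Higher and lower counts were 226 and 204 under quantile normalization, 172 and 305 at equal medians, and 242 and 216 without H2 and N2. With 1 library left out, 129 to 536 genes were called, 40 to 255 higher and 84 to 281 lower. Same-numbered libraries did not deviate together (correlations -0.255 to 0.0783). No label says what the numbers mark, and these correlations cannot settle whether they pair the libraries. The replicate block called 191 genes, 78 higher and 113 lower.

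Recovered reads called 1390 of all 11483 tested genes. Among these were 1 of 12 flanking genes, 1 of 10 HOX cofactors and 3 of 27 Polycomb genes. The others were 7 of 19 Trithorax, 1 of 12 CTCF and cohesin and 1 of 8 retinoid genes. HOX cofactors had 1 call under quantile normalization, at equal medians and without H2 and N2, Polycomb 2 without H2 and N2, and Trithorax 1 without the filter. With 1 library left out the counts were 0 to 1 cofactors, 1 to 3 Polycomb, 0 to 2 Trithorax and 0 to 1 retinoid genes. The cause was not tested. Between 2 and 62 reads stand behind each Haglr value, which limits its precision.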
